A study of Mus musculus with 88 samples.

Results

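Whole blood of pristane-treated lupus-prone mice was compared with that of untreated mice 4 weeks after the injection, on 16 of the 88 arrays of the series. The members were chosen by sample title alone, as 8 pristane-treated and 8 untreated arrays of week 4. The mice were SNF1, the F1 cross of the SWR and NZB strains, which develop lupus nephritis spontaneously. Pristane, a hydrocarbon oil that incites sterile inflammation, was injected into the peritoneum of females aged 9 weeks, and the untreated mice were age-matched females with no injection. Both groups therefore carried the same disease-prone background, and no group received a control injection on the arrays analysed here, so that the oil and the injection cannot be told apart. The labels do not say whether the mice of week 4 were also bled at another week.

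Type I interferons act through a shared receptor on nearly all blood cells and switch on a set of genes that block viral replication, sense nucleic acids and amplify the response itself. This set is high in the blood of many patients with systemic lupus erythematosus, and pristane is known to induce it in mice. Neutrophils are short-lived white cells that carry antimicrobial proteins in granules that are filled while the cells mature in the bone marrow, so that RNAs for granule proteins in blood are mostly those of younger cells. In bulk blood, fewer cells of a type and less RNA per cell cannot be told apart.

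Each value was a log2 signal after normalization, and differences were tested with limma over 45037 probe sets with Benjamini-Hochberg adjustment. A gene was represented by its brightest probe set, which gave 17097 genes. Array medians of the 16 arrays lay between 3.81 and 4.01, and pairwise correlations between 0.94 and 0.987. Interquartile ranges differed more, from 2.79 to 3.54, and were narrowest on pristane replicates 7 and 8 and untreated replicates 6 and 8. When arrays were weighted by their fit, these also had the lowest weights, 0.392 to 0.569. The part of this spread in the values of single arrays was not tested. The tissue label was checked against markers of blood. Their mean log2 signal was 11.57 to 11.97 in pristane-treated and 11.45 to 11.78 in untreated blood, whereas genes of liver, kidney, skin, muscle, lung, brain, pancreas and fat averaged 3.62 to 4.29 in pristane-treated and 3.50 to 4.42 in untreated blood. The labels gave no batch, and the number of arrays limits the precision.

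One array stood apart from its label. Pristane replicate 1 lacked most of the rises seen on the other 7 pristane arrays. Over the 274 genes called higher without it, it showed a median of 9.37% of the shift between the untreated mean and the mean of the other 7, and for 231 of these genes it lay inside the untreated range. The same measure, computed for each array against genes called without that array, ran from 67.7% to 156% on the other 7 pristane arrays. For these the mean of the remaining pristane arrays included replicate 1, so that the shift was shorter and the percentages ran higher. The falls were less clear-cut, with a median of 39.4% over 27 genes. On falls, pristane replicate 2 had 47.4% and pristane replicates 3 to 8 had 71.8% to 120%. Untreated replicates 8 and 6 had 56.9% and 45.1% of the fall, more than pristane replicate 1, and the remaining untreated arrays had -41.8% to 20.5%. Its median correlation was 0.96 with the other pristane arrays and 0.9757 with the untreated arrays, although 2 other pristane arrays also correlated better with untreated arrays. Replicate 2 had 0.9718 with pristane and 0.976 with untreated arrays, and replicate 5 had 0.9662 with pristane and 0.9692 with untreated arrays. All results are given with it and, where it matters, without it.

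At week 4, 227 genes were higher in pristane-treated blood and 20 were lower, with the call set at over 2-fold and an adjusted p below 0.05, which is 1.33% and 0.117% of the genes tested. Of the rises, 48 exceeded 4-fold and 11 exceeded 8-fold, whereas no fall exceeded 4-fold. With no fold threshold, 372 genes rose and 137 fell, or 2.18% and 0.801% of all genes. Without pristane replicate 1 the calls numbered 274 higher and 27 lower, or 1.6% and 0.158%, and with no fold threshold 2.63% rose and 1.27% fell. All 20 falls and 224 of the 227 rises were shared by both counts. The 3 rises lost without the array were Panct2, Gbp10 and Apaf1, on which replicate 1 had 6.08, 7.86 and 7.16 on the log2 scale; they are named because they were lost.

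Replicate 1 was part of the overlap between groups in many of the called genes. In 13 of the 227 rises all 8 pristane arrays lay above all 8 untreated arrays, and in 127 the other 7 did. Over all 17097 genes, all 8 pristane arrays lay above all untreated arrays in 0.152% and below them in 0.0819%, and the other 7 lay above in 0.994%. Since the calls rest on the same values, these counts are a description. The 13 included Oas1g, Cmpk2, Parp12, Trim30d, Slfn3, Saa3, App and S100a8, of which Parp12, Trim30d, Slfn3 and App were picked out after their values were seen.

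**Figure D1:**
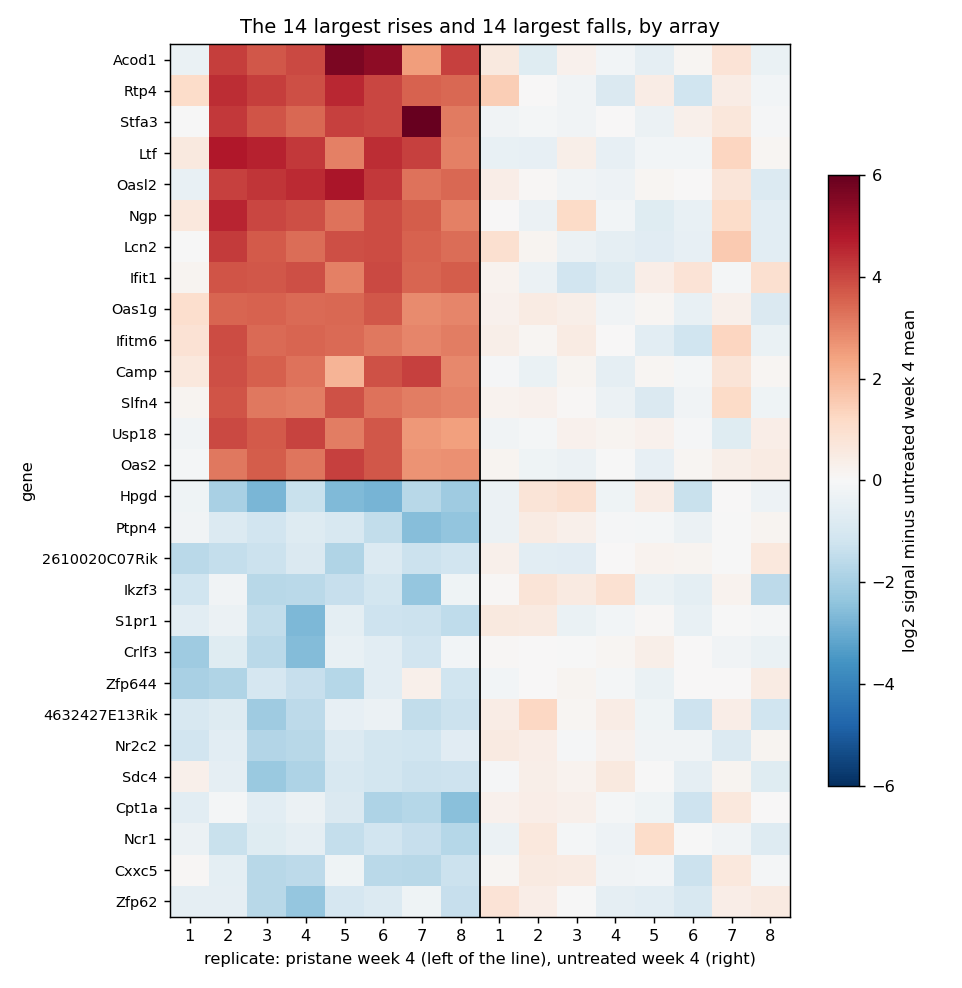
Log2 signal minus the untreated week 4 mean for the 14 genes with the largest rises (upper rows) and the 14 with the largest falls (lower rows), one column per array, pristane left of the line and untreated right of it; red is higher and blue lower. Pristane replicate 1, the first column, is pale in the upper rows, where it lies within the untreated range for 13 of the 14 genes, while it is past that range for 5 of the 14 falls.

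The leading rises belonged to 2 groups, interferon-induced genes and neutrophil genes. Among the 14 largest, Rtp4, Oasl2, Ifit1, Oas1g, Slfn4, Usp18 and Oas2 were in the interferon lists and Acod1, Stfa3, Ltf, Ngp, Lcn2 and Camp in the neutrophil lists. Ifitm6, a membrane protein of the interferon-induced transmembrane family, was in no list. Over all 227, the interferon lists held 25 and the neutrophil lists 31, and 146 genes were in none of the 33 lists examined.

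Interferon effectors, the proteins that act directly on viruses and infected cells, rose together. Of 32 measured, 22 rose and none fell, with a median log2 difference of 1.40, beside a median of 0.00 over all genes. Without replicate 1, 23 rose and the median was 1.58.

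Rtp4, a chaperone of receptor trafficking, had a lowest, median and highest log2 signal of 6.61, 9.46 and 10.04 in pristane-treated blood and of 4.33, 5.46 and 6.99 in untreated blood. Thus 7 of 8 pristane arrays were above every untreated array, and replicate 1 was inside the untreated range. The difference was 12.4-fold (95% confidence interval 7.90 to 19.4, adjusted p = 1.57e-13), and its second probe set also rose. Without replicate 1 it was 15.9-fold.

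Oasl2, a relative of the oligoadenylate synthetases, had 4.64, 9.25 and 9.98 in pristane-treated blood and 4.27, 5.13 and 5.81 in untreated blood. Replicate 1 was the only pristane array within the untreated range. The rise was 11.5-fold (6.88 to 19.2, adjusted p = 4.88e-11), and 17.1-fold without that array.

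Ifit1, which binds viral RNA that lacks the cap methylation of the host's own, had 6.47, 9.98 and 10.23 in pristane-treated blood against 5.13, 6.33 and 7.26 in untreated blood. The 7 other pristane arrays were tightly grouped and far above the untreated ones. It rose 9.18-fold (5.91 to 14.2, adjusted p = 6.7e-12), and 12.4-fold without replicate 1.

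Oas1g, an oligoadenylate synthetase paralog whose mouse family senses double-stranded RNA, was the 1 gene among the 14 largest rises on which replicate 1 was above the untreated range. It had 6.26, 8.69 and 8.99 in pristane-treated blood and 4.41, 5.45 and 5.74 in untreated blood, so that even replicate 1, the lowest pristane array, exceeded every untreated one. It rose 8.30-fold (5.65 to 12.2, adjusted p = 1.89e-13). Probes of the Oas1 paralogs can share targets, so the level of a single paralog is uncertain.

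Cmpk2, a mitochondrial nucleotide kinase, also separated the groups completely, with 5.20, 6.17 and 6.85 in pristane-treated blood and 3.50, 3.87 and 4.10 in untreated blood. It rose 4.92-fold (3.52 to 6.87, adjusted p = 4.42e-11), although a second probe set did not pass the test. The remaining leaders were Slfn4, a schlafen protein of myeloid cells (7.57-fold), and Oas2, an oligoadenylate synthetase (7.47-fold), with replicate 1 again inside the untreated range. Ifi27l2a rose 4.76-fold (adjusted p = 2.64e-11), the antiviral GTPase Mx1 by 1.61 on the log2 scale (adjusted p = 0.00015), and Ifitm3, which blocks entry of enveloped viruses, 2.01-fold (adjusted p = 1.42e-06).

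The 10 effectors that did not pass included several familiar members. Eif2ak2, the kinase that stops translation on double-stranded RNA, differed by 0.55 on the log2 scale (adjusted p = 0.176), Rsad2, or viperin, by 0.26 (adjusted p = 0.236) and Ifit2 by -0.14 (adjusted p = 0.869). At limma's unadjusted p under 0.05, 28 of the 32 effectors were higher and 0 lower (87.5% and 0%). Over all genes the shares were 6.81% and 6.62%. The log2 difference was above 0 in 31 of the 32.

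Promoter sequence is shown for 3 of the leading interferon genes, because the interferon-stimulated response element to which the interferon-activated factors bind is a short, recognizable motif. The windows run from 250 bases before to 50 after the start in RefSeq (GRCm38.p6), and the motif was searched as GAAA, any 2 bases, GAAA on both strands; capitals mark the matches. Ifit1 lies at chr19:34640639-34640938 on the plus strand, Oas1g at chr5:120887564-120887863 on the minus strand and Oasl2 at chr5:114896684-114896983 on the plus strand.
Ifit1: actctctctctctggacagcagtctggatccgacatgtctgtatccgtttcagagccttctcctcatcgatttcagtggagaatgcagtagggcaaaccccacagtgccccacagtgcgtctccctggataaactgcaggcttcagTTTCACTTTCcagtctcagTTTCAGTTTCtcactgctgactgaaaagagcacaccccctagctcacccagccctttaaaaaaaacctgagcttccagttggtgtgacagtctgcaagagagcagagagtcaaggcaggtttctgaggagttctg
Oas1g: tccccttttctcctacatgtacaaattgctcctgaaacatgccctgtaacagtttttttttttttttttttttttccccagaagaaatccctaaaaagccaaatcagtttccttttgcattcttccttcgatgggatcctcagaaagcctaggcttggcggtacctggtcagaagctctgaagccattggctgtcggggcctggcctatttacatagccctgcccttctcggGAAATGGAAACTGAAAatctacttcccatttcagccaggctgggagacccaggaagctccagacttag
Oasl2: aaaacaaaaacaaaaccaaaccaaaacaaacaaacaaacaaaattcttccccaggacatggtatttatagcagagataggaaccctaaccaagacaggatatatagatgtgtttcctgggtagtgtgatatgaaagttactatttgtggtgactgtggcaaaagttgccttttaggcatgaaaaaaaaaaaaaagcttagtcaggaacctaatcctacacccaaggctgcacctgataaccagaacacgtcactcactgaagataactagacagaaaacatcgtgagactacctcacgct
Ifit1 has 2 matches, both on the reverse strand, which begin 104 and 85 bases before the start. Oas1g has 2 that overlap each other, 18 and 12 bases before the start, and the Oasl2 window holds no match. Nor do those of Slfn4, Irf7 and Oasl1, the next genes by rise with a window, so that 2 of the 6 had one. The motif was found in 3.99% of the 27025 genes of the table and in 3.59% of the 13605 that the arrays also measured. It was found in 10 of 23 interferon effectors with a window (43.5%), in 8 of the 15 that rose (53.3%) and in 11.6% of the 181 called rises with a window. Among the interferon regulators it was found in 3 of 20 (15%), and in 0 of the 4 that rose. A match is a description of the sequence and not evidence of binding.

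Of the regulators of the response, 5 of 21 rose and none fell, and the median log2 difference was 0.23. Irf7, the transcription factor that amplifies type I interferon production, had 6.58, 10.45 and 10.84 in pristane-treated blood and 6.59, 7.0 and 7.58 in untreated blood. Replicate 1 was below every untreated array, while the others were all above. The rise was 7.38-fold (4.81 to 11.3, adjusted p = 7.92e-11).

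Usp18, the protease that removes Isg15 from proteins and shuts off receptor signaling, had 4.89, 8.49 and 9.16 in pristane-treated blood and 4.41, 5.16 and 5.51 in untreated blood, again with only replicate 1 inside the untreated range. It rose 7.54-fold (4.86 to 11.7, adjusted p = 1.22e-10). The ubiquitin ligase Dtx3l rose 2.21-fold (adjusted p = 5.74e-07), Irf9, the DNA-binding subunit of the interferon-activated complex, 1.87-fold (adjusted p = 0.00217, not past with week 4 alone) and Socs3, an inhibitor of cytokine signaling, 2.35-fold (adjusted p = 0.00606).

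The receptor chains did not pass the test, with log2 differences of -0.07 for Ifnar1 and 0.06 for Ifnar2 (adjusted p = 0.936 and 0.959), and Stat2 differed by 0.59 (adjusted p = 0.378). Of 20 nucleic acid sensors, 2 rose, both cytosolic RNA sensors. Ifih1, or MDA5, had 6.12, 8.12 and 8.32 in pristane-treated blood and 5.45, 6.08 and 6.46 in untreated blood, a 3.48-fold rise (2.51 to 4.83, adjusted p = 6.68e-08). Its regulator Dhx58 rose 3.09-fold (adjusted p = 8.71e-05), though neither of 2 further probe sets passed. The endosomal receptor Tlr7, which responds to single-stranded RNA and is central to several lupus models, differed by 0.46 (adjusted p = 0.638) and Tlr9 by 0.07 (adjusted p = 0.939).

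Interferon-induced GTPases, which attack the vacuoles of intracellular microbes and respond strongly to interferon gamma, rose in 4 of 11 cases with a median of 0.64. These were Irgm1 (2.17-fold, adjusted p = 0.0269), Gbp7 (1.69-fold, adjusted p = 0.0284), Igtp (1.46-fold, adjusted p = 0.0315) and Irgm2 (1.89-fold, adjusted p = 0.0431). The values sat close to the threshold and the groups overlapped in each gene. As a list, the GTPases had means of 7.0 to 7.97 on pristane and 6.38 to 7.87 on untreated arrays, and 7 of the 8 pristane arrays lay within the untreated range. That range was set by untreated replicate 1 at 7.87. The next highest untreated array, replicate 5, had 6.98, below every pristane array. Irgm1, Gbp7 and Igtp missed the adjusted threshold when only the arrays of week 4 were fitted. The response element was present in 7 of the 8 genes of this list with a window (87.5%).

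The mean of the 32 effectors summarizes the interferon genes by array. It was 6.89 on pristane replicate 1 and 8.15 to 8.75 on the other 7 pristane arrays, against 6.58 to 7.11 on untreated arrays. Replicate 1 lay inside the untreated range. Markers of mature neutrophils moved with it, as 31 of 39 rose and their mean was 7.16 to 9.43 in pristane-treated and 6.63 to 7.73 in untreated blood. The part of cell composition in the interferon rises was not tested.

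**Figure D2:**
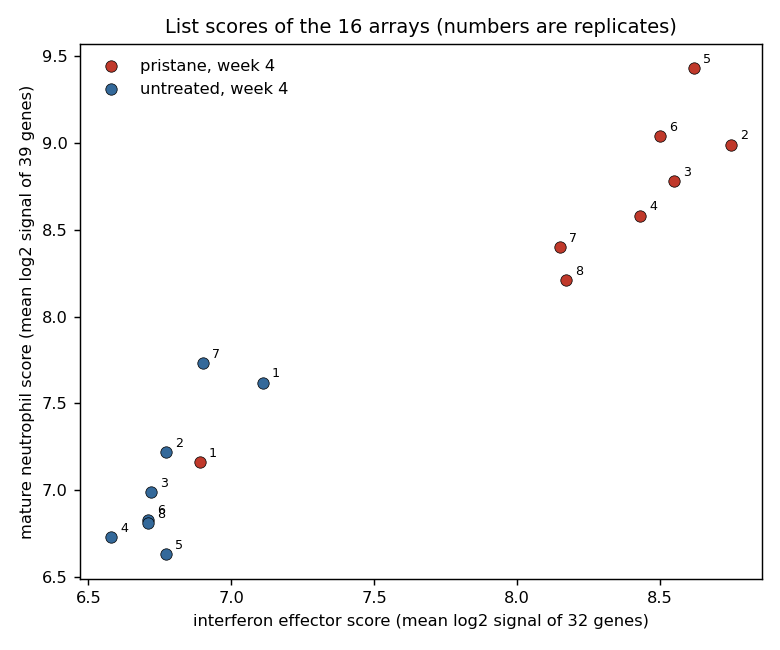
Mean log2 signal of the 32 interferon effectors (horizontal axis) and of the 39 mature neutrophil genes (vertical axis) on each of the 16 week 4 arrays, labeled by replicate number, with pristane in red and untreated in blue. The pristane arrays other than replicate 1 lie at or above 8.15 and 8.21 on the axes, whereas replicate 1 is at 6.89 and 7.16, among the untreated arrays.

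The neutrophil lists, which share Lcn2, Mmp8 and Cd177, also rose. Of 39 mature neutrophil genes, 31 rose and none fell, with a median log2 difference of 1.29, and without replicate 1, 34 rose with a median of 1.54. Of 17 granule genes, 10 rose and none fell, with a median of 1.85, and without replicate 1, 11 rose with a median of 2.10.

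Acod1, the enzyme that makes itaconate in activated myeloid cells, was the largest rise of all. It had 3.78, 8.23 and 9.82 in pristane-treated blood and 3.48, 4.16 and 5.00 in untreated blood, with replicate 1 inside and the other 7 outside the untreated range. The difference was 12.4-fold (6.24 to 24.7, adjusted p = 2.19e-07), and 18.5-fold without replicate 1. Stfa3, an inhibitor of cysteine proteases, had 2.65, 6.58 and 8.82 in pristane-treated blood, against 2.33, 2.58 and 3.37 in untreated blood, and rose 12.1-fold (6.48 to 22.6, adjusted p = 1.73e-08). Stfa3 lies among close paralogs, so the share of each is uncertain.

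S100a8 and S100a9, the subunits of calprotectin and among the most abundant neutrophil proteins, were already near the top of the scale. S100a8 had 11.80, 12.26 and 12.58 in pristane-treated blood and 10.78, 11.17 and 11.63 in untreated blood, with no overlap. It rose 2.12-fold (1.74 to 2.57, adjusted p = 4.36e-08). S100a9 likewise did not overlap, at 12.59 to 12.94 in pristane-treated and 11.57 to 12.48 in untreated blood, and rose 1.63-fold (adjusted p = 4.38e-06). Here replicate 1 was the lowest of the pristane arrays but stood above the untreated ones.

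Granule genes are ordered here by the class of granule. Ltf, or lactoferrin, an iron-binding protein of specific granules, had 6.16, 9.76 and 10.37 in pristane-treated blood and 5.10, 5.42 and 6.86 in untreated blood. It rose 12.1-fold (6.58 to 22.1, adjusted p = 7.28e-09), and 16.3-fold without replicate 1. Replicate 1 was at 6.16, and untreated replicate 7 was the highest untreated array at 6.86.

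Ngp, a specific granule protein, had 6.63, 9.73 and 10.55 in pristane-treated blood against 5.28, 5.72 and 7.11 in untreated blood, and rose 10.3-fold (6.0 to 17.7, adjusted p = 1.58e-09). Camp, the precursor of cathelicidin, had 6.82, 9.58 and 10.26 in pristane-treated blood against 5.62, 6.19 and 6.92 in untreated blood, and rose 8.16-fold (4.70 to 14.2, adjusted p = 6.68e-08). Lcn2, which binds bacterial siderophores, had 7.07, 10.68 and 11.27 in pristane-treated blood against 6.39, 6.66 and 8.66 in untreated blood, and rose 9.40-fold (5.72 to 15.4, adjusted p = 2.59e-10). On all 3, replicate 1 was within the untreated range and the other 7 pristane arrays were above it.

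Mmp8, the neutrophil collagenase, rose 6.69-fold (adjusted p = 8.09e-09), Olfm4, which marks a subset of neutrophils, 4.00-fold (adjusted p = 4.5e-05), and Anxa1, a phospholipid-binding protein that dampens inflammation, 3.62-fold (adjusted p = 1.67e-09). Of the azurophil granule genes, which are transcribed in the promyelocyte stage, 1 passed. Mpo, or myeloperoxidase, rose 1.97-fold (1.39 to 2.78, adjusted p = 0.0143), with 2.30, 4.02 and 5.88 in pristane-treated blood and 2.60, 3.05 and 3.51 in untreated blood. The serine proteases of these granules did not, with log2 differences of 0.14 for Elane, 0.49 for Prtn3 and 0.24 for Ctsg (adjusted p = 0.8, 0.237 and 0.715). No test compared the granule classes with each other.

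The promoters of Ltf and Ngp are shown as the leading granule genes. The C/EBP factors, which drive granule gene transcription in maturing neutrophils, bind a pair of half-sites, searched as TTGC, any 2 bases, AA on both strands. Ltf lies at chr9:111019042-111019341 and Ngp at chr9:110419558-110419857, both on the plus strand (GRCm38.p6, RefSeq).
Ltf: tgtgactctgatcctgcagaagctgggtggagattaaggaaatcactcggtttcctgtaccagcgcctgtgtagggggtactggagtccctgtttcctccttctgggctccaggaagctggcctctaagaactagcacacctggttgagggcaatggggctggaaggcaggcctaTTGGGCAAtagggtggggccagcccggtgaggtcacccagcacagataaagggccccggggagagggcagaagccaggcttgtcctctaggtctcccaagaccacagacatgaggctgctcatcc
Ngp: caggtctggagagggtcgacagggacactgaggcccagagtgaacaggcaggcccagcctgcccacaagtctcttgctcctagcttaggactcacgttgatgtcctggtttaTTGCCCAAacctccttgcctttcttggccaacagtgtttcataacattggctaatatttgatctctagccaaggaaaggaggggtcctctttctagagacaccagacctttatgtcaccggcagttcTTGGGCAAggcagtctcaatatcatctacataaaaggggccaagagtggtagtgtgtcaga
Ltf has 1 match, 75 bases before the start, and Ngp has 2, at 138 and 11 bases before it. The letters were found in 12.2% of all genes in the table and in 10.8% of those on the arrays, in 6 of 16 granule genes (37.5%) and in 5 of the 10 that rose (50%). The interferon element was found in 0 of the 16.

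The mean of the 17 granule genes was 5.61 on pristane replicate 1 and 6.91 to 7.89 on the other 7 pristane arrays, against 5.15 to 6.14 on untreated arrays. Untreated replicates 7 and 1 had the highest neutrophil means of their group, 7.73 and 7.62. Counted over the genes called higher without each, these arrays had 38.3% and 35.5% of the pristane shift, against -20.2% to 16.1% on the other untreated arrays.

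**Figure D3:**
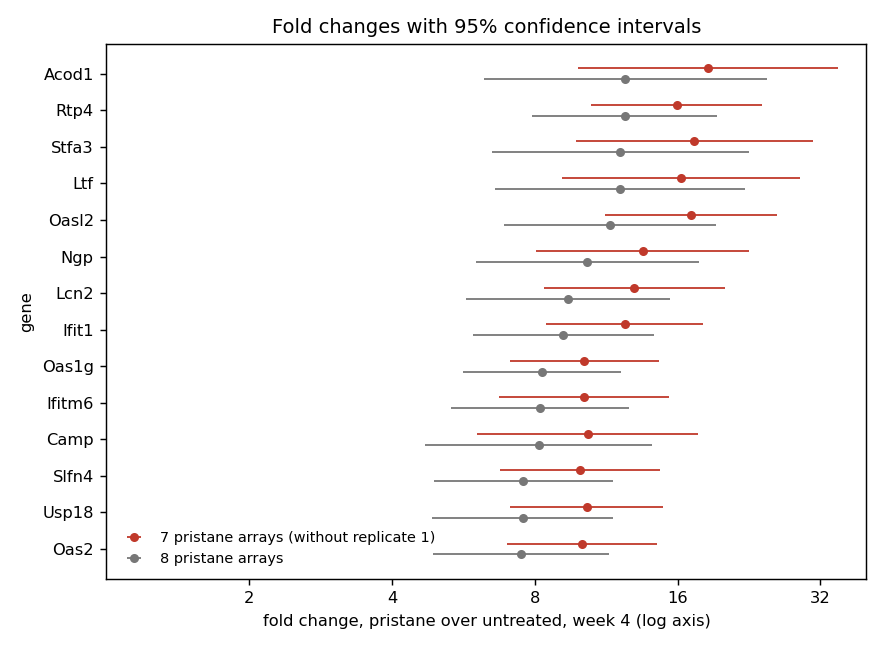
Fold change of pristane over untreated at week 4 (log axis) for the 14 largest rises, with 95% confidence intervals, computed without pristane replicate 1 (red) and with all 8 pristane arrays (gray). Each red point lies to the right of the gray one, for instance 18.5-fold against 12.4-fold for Acod1.

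Receptors and mediators of innate immunity rose in part. Among 16 surface pattern receptors and their signaling partners, 9 rose and none fell, with a median of 0.77. The mean of the list was 6.38 to 6.48 on pristane replicates 1, 7 and 8, inside the untreated range of 5.85 to 6.63, and 7.08 to 7.84 on the other 5 pristane arrays. Clec7a, or dectin-1, a receptor for fungal glucans, had 8.14, 8.95 and 9.54 in pristane-treated blood and 7.21, 7.57 and 8.34 in untreated blood, and rose 2.32-fold (1.72 to 3.12, adjusted p = 7.74e-05). On it 6 of the 8 pristane arrays were above all untreated ones. The coreceptor for endotoxin Cd14 rose 2.81-fold (adjusted p = 0.000527) and Tlr2, a receptor for bacterial lipoproteins, 2.75-fold (adjusted p = 0.00172), while Tlr4 differed by 0.05 on the log2 scale (adjusted p = 0.94).

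Of 26 inflammasome and cytokine genes, 5 rose and none fell, with a median of 0.41. Here too the mean of pristane replicates 1, 7 and 8, at 5.25 to 5.44, lay within the untreated range of 5.0 to 5.55, while the other 5 had 5.93 to 6.38. Casp4, the sensor of cytosolic endotoxin called caspase-11 in mice, had 6.59, 8.00 and 9.36 in pristane-treated blood and 5.64, 6.34 and 6.84 in untreated blood, and rose 3.12-fold (2.10 to 4.64, adjusted p = 6.21e-05). Csf2rb, the shared receptor chain of GM-CSF, interleukin 3 and interleukin 5, rose 2.75-fold (adjusted p = 7.88e-05). The acute-phase gene Saa3 had 4.13, 6.05 and 8.26 in pristane-treated blood, against untreated values that reached 4.12, and rose 4.61-fold (2.56 to 8.33, adjusted p = 0.000368). The interleukin 1 antagonist Il1rn rose 2.61-fold (adjusted p = 0.00195) and Il1b 1.72-fold (adjusted p = 0.0249). The call on Il1rn was lost when week 4 was fitted alone, and neither of its 2 further probe sets rose at the adjusted p. Il6 and Tnf differed by -0.01 and 0.37 (adjusted p = 0.998 and 0.32).

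Of 19 complement and Fc receptor genes, 4 rose, with a median of 0.16. C5ar1, the receptor for the chemoattractant C5a, had 8.98, 10.20 and 10.60 in pristane-treated blood and 8.20, 8.78 and 9.12 in untreated blood, and rose 2.52-fold (1.92 to 3.30, adjusted p = 1.53e-06). A second probe set of C5ar1 did not rise at the adjusted p. Properdin, encoded by Cfp, which stabilizes the alternative pathway convertase, rose 2.22-fold (adjusted p = 0.000145), and the Fc receptor gene Fcgr3 2.00-fold (adjusted p = 0.00616), the last of which did not pass with week 4 alone. Replicates 1, 7 and 8 were the 3 pristane arrays within the untreated range of the list mean. Most of the receptors in these paragraphs are expressed by neutrophils, whose markers were higher in the same blood, and the part of cell composition was not tested.

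Both blood subsets of monocytes were examined. In the classical subset, which leaves the marrow through the chemokine receptor Ccr2, 8 of 16 genes rose with a median of 0.73. The mean of the list was 7.5, 7.57 and 7.68 on pristane replicates 7, 1 and 8, which lay within the untreated range of 6.91 to 7.85, and 8.22 to 8.82 on the other 5 pristane arrays. Ly6c1 had 6.61, 8.89 and 9.34 in pristane-treated blood and 6.13, 7.10 and 7.44 in untreated blood, and rose 3.11-fold (2.06 to 4.69, adjusted p = 0.000131), with only replicate 1 inside the untreated range. Ccr2 had 7.31, 7.92 and 8.57 in pristane-treated blood and 6.01, 6.96 and 7.68 in untreated blood, and rose 2.06-fold (1.46 to 2.90, adjusted p = 0.00686). On Ccr2, unlike most rises, replicate 1 was at 7.96, which is 99.7% of the shift, although none of 3 further probe sets passed.

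Of 13 patrolling monocyte genes none rose or fell by limma, with 2 lower (15.4%) and 0 higher at an unadjusted p under 0.05 and a median of -0.23. Over all genes, 6.62% were lower and 6.81% higher at an unadjusted p under 0.05. The difference between the subsets was not tested. Chil3 and Cd14, in the classical list, are also made by neutrophils or held in another list.

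Among rarer leukocytes, 2 of 11 basophil and mast cell genes rose. Hdc, the enzyme that makes histamine, which neutrophils also express, had 7.90, 9.61 and 10.38 in pristane-treated blood and 7.31, 7.59 and 8.70 in untreated blood, and rose 3.17-fold (2.17 to 4.65, adjusted p = 2.31e-05). Mcpt8, a basophil protease, had 4.78, 6.37 and 7.20 in pristane-treated blood and 3.74, 4.61 and 5.47 in untreated blood, and rose 3.34-fold (2.07 to 5.40, adjusted p = 0.000639). Ms4a2 and Fcer1a, subunits of the high-affinity IgE receptor, differed by 0.79 and 0.55 (adjusted p = 0.286 and 0.645). None of 7 eosinophil genes passed by limma, and 1 (14.3%) was higher at an unadjusted p under 0.05, beside 6.81% of all genes.

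Platelet and red cell genes showed no call in either direction. Of 17 platelet genes and 23 erythroid genes, 0 passed limma's adjusted threshold. At an unadjusted p under 0.05, 1 platelet gene was lower (5.88%) and 2 erythroid genes were higher (8.7%), near the 6.62% and 6.81% of all genes. The mean of the platelet genes was 9.14 to 9.59 in pristane-treated and 9.13 to 9.75 in untreated blood, a difference of -0.102 (two-sided exact permutation test, p = 0.33, 0.495 after adjustment over 3 tests). The erythroid mean was 8.29 to 9.72 in pristane-treated and 7.98 to 9.34 in untreated blood, a difference of 0.275 (exact permutation p = 0.278, adjusted 0.495). For genes of other tissues the difference was 0.043 (exact permutation p = 0.756, adjusted 0.756).

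**Figure D4:**
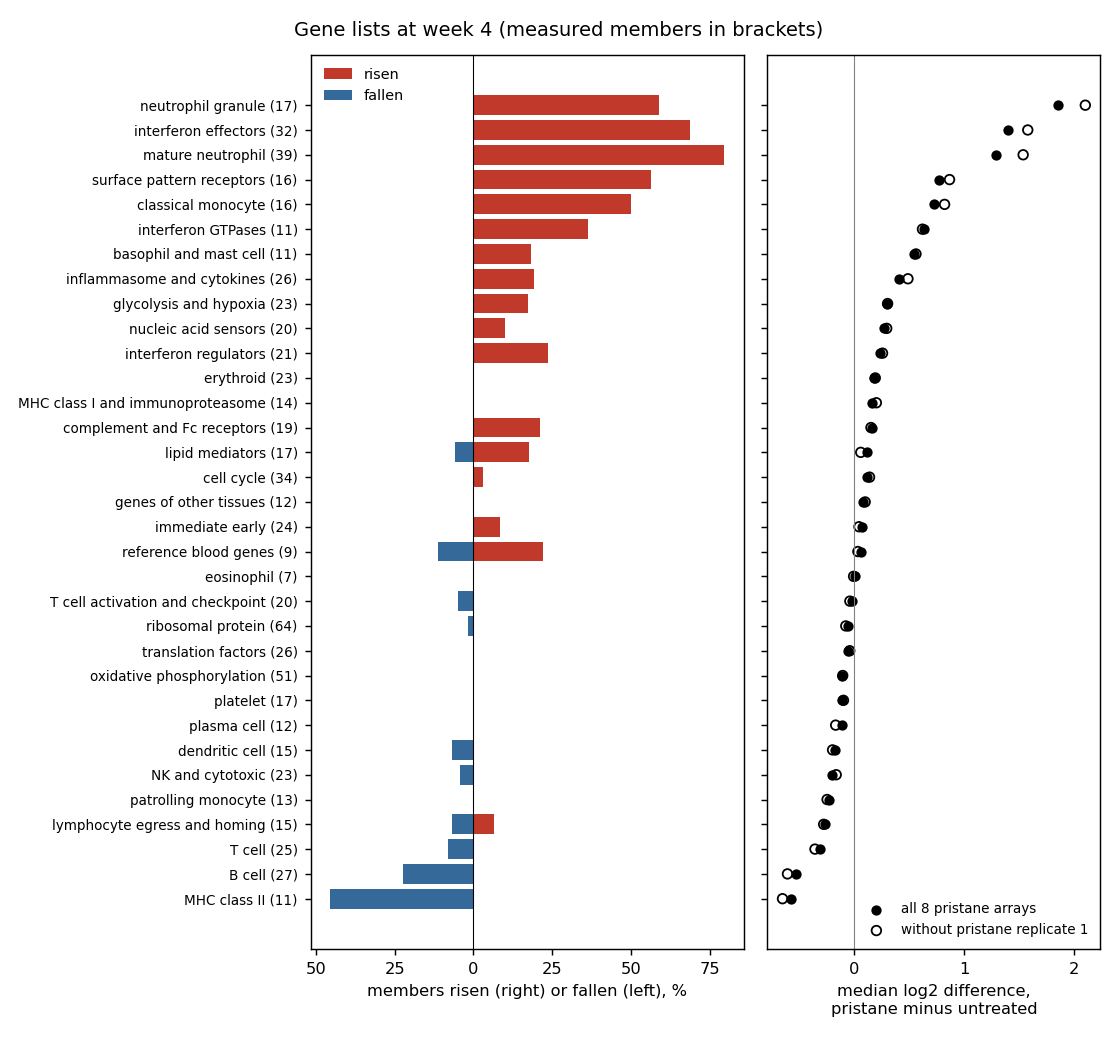
Left, percent of measured members of each gene list that rose (red, to the right) or fell (blue, to the left) at week 4; right, the median log2 difference of pristane minus untreated with all 8 pristane arrays (filled) and without replicate 1 (open). Lists run by median from the neutrophil granule genes at 1.85 to the MHC class II genes at -0.57.

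Lymphocyte genes held falls and few rises. Of 27 B cell genes, 6 fell and none rose, with a median log2 difference of -0.53. Cd79a, a signaling chain of the B cell receptor, had 8.78, 9.44 and 10.37 in pristane-treated blood and 9.70, 10.24 and 10.56 in untreated blood, and was 1.70-fold lower (1.33 to 2.17, adjusted p = 0.0051). Its partner Cd79b had 9.30, 9.65 and 11.14 in pristane-treated blood and 10.38, 10.71 and 10.97 in untreated blood, and was 1.71-fold lower (1.33 to 2.19, adjusted p = 0.00614). In both genes replicate 1 was the highest pristane array, and in Cd79b it was the highest of all 16.

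Spib, a transcription factor of B cells and plasmacytoid dendritic cells, had 8.17, 8.80 and 10.11 in pristane-treated blood and 9.0, 10.01 and 10.41 in untreated blood, with replicate 1 at 10.11. It was 2.06-fold lower (1.51 to 2.81, adjusted p = 0.00203). Tnfrsf13c, the receptor for the survival factor BAFF, was 1.89-fold lower (adjusted p = 0.00625) and Ms4a1, which encodes CD20, 1.80-fold lower (adjusted p = 0.0147). Pax5 and Ighm differed by -0.14 and -0.21 on the log2 scale (adjusted p = 0.808 and 0.744).

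Of 11 MHC class II genes, which encode and load the molecules that present peptides to helper T cells, 5 fell, with a median of -0.57. Cd74, the invariant chain, had 11.02, 11.31 and 12.29 in pristane-treated blood and 11.57, 12.27 and 12.44 in untreated blood, and was 1.51-fold lower (1.24 to 1.84, adjusted p = 0.00665). Ciita, their master transactivator, was 1.71-fold lower (adjusted p = 0.0196) and H2-DMb2, a peptide exchange chain, 1.75-fold lower (adjusted p = 0.0132).

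The mean of the B cell genes was 7.43 to 8.68 in pristane-treated and 7.80 to 8.72 in untreated blood, and that of the MHC class II genes 8.22 to 9.38 in pristane-treated and 8.94 to 9.76 in untreated blood. Replicate 1 had the highest pristane value of both, and the other 7 pristane arrays reached 8.20 and 9.14. Neutrophil markers rose in the same blood, and the part of cell proportions in these falls was not tested. The counts were sensitive to the settings. Without pristane replicate 1, 10 B cell and 7 MHC class II genes fell, and when only the 16 arrays of week 4 were fitted, 1 of each. In that fit Cd79a, Cd79b, Tnfrsf13c, Cd74, Ciita and H2-DMb2 did not pass. Nor did Ms4a1, since the 1 B cell gene left was Spib.

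Few T cell and NK cell genes passed the test. Of 25 T cell genes, 2 fell and none rose, with a median of -0.31, namely Ikzf3, a zinc finger regulator of lymphocytes (2.35-fold lower, 1.60 to 3.45, adjusted p = 0.00348), and the adhesion molecule Cd2 (1.62-fold lower, adjusted p = 0.0198). Ikzf3 had 4.08, 5.11 and 6.20 in pristane-treated and 4.87, 6.56 and 7.34 in untreated blood, so the groups overlapped widely, and replicate 1, at 5.21, had 98.2% of the shift. Cd3e, Cd4 and Cd8a differed by 0.10, -0.40 and -0.11 (adjusted p = 0.901, 0.418 and 0.935). Of 23 NK and cytotoxic genes, the NK receptor Ncr1 fell 2.1-fold (1.39 to 3.21, adjusted p = 0.0339), with 2.67, 3.12 and 3.98 in pristane-treated and 3.58, 4.20 and 5.47 in untreated blood. At limma's unadjusted p under 0.05, 8 NK genes were lower and 1 higher (34.8% and 4.35%), and 4 T cell genes were lower and 0 higher (16% and 0%). Over all genes the shares were 6.62% lower and 6.81% higher. Tbx21, the T-bet regulator of type 1 responses, was the single gene of 20 T cell activation genes to pass, 1.84-fold lower (adjusted p = 0.0282). Ikzf3, Cd2 and Tbx21 did not pass with week 4 alone. Of 15 dendritic cell genes, only Spib, which is also in the B cell list, fell, while 6 (40%) were lower and 0 higher at an unadjusted p under 0.05. The mean of that list was 5.75 on pristane replicate 1 and 5.21 to 5.47 on the other pristane arrays, against 5.51 to 5.87 on untreated arrays.

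S1pr1, the receptor that lets lymphocytes leave lymphoid organs, had 3.96, 5.39 and 6.27 in pristane-treated blood and 6.19, 6.56 and 7.23 in untreated blood. On this gene 7 pristane arrays, replicate 1 included, lay below all untreated arrays. It was 2.33-fold lower (1.63 to 3.33, adjusted p = 0.00162), and 2.47-fold lower without replicate 1.

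Of the lipid mediator genes, 3 of 17 rose and 1 fell. Alox5, which starts leukotriene synthesis, had 6.72, 7.67 and 8.25 in pristane-treated blood and 4.84, 6.42 and 7.32 in untreated blood, and rose by 1.24 on the log2 scale (adjusted p = 0.000142). Its activating protein gene Alox5ap rose 1.52-fold (adjusted p = 0.00205) and Pla2g7, which degrades platelet-activating factor, 2.15-fold (adjusted p = 0.00909, not past with week 4 alone). Hpgd, which inactivates prostaglandins, was the largest fall of the comparison, with 3.43, 4.19 and 5.97 in pristane-treated blood and 4.89, 6.11 and 7.20 in untreated blood. It was 3.82-fold lower (2.14 to 6.83, adjusted p = 0.00216), with replicate 1 the highest pristane array, and a second probe set did not pass.

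The other large falls were between 2.09-fold and 2.47-fold. Ptpn4, a tyrosine phosphatase, had 3.11, 4.62 and 5.44 in pristane-treated blood and 5.30, 5.63 and 6.14 in untreated blood (2.47-fold lower, 1.60 to 3.81, adjusted p = 0.00763). The clone 2610020C07Rik was the single called fall with no overlap, at 3.65 to 4.62 in pristane-treated and 4.75 to 6.05 in untreated blood (2.43-fold lower, adjusted p = 0.000456). Replicate 1 shared several falls in full. On Crlf3, a cytokine receptor-like protein, it had 5.47 against an untreated range of 7.20 to 7.97, and on Zfp644, a zinc finger protein, 5.07 against 6.61 to 7.52. It had 203% of the shift of the other 7 arrays on Crlf3, 186% on Zfp644 and 104% on the nuclear receptor gene Nr2c2, but -22.9% on Sdc4, a heparan sulfate proteoglycan. None of 5 further probe sets of Zfp644 passed.

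The remaining falls of that rank were 4632427E13Rik (2.19-fold), Cpt1a, which imports fatty acids into mitochondria (2.13-fold), Cxxc5 (2.1-fold) and Zfp62 (2.09-fold). On Cxxc5 replicate 1, at 6.92, was the highest pristane array. Of the 20 called falls, 15 were in none of the lists. With week 4 fitted alone 11 falls were called, and Sdc4, Cpt1a, Cxxc5, Zfp62 and 4632427E13Rik were not among those past the adjusted p.

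Housekeeping lists held few calls, and the glycolysis and immediate early lists held more. Of 64 ribosomal protein genes 1 fell, Rpl13a (1.34-fold lower, adjusted p = 0.0333), of 34 cell cycle genes 1 rose, Hmgb2 (1.64-fold, adjusted p = 0.0437), and of 51 oxidative phosphorylation genes and 26 translation factors none passed by limma, with 6 and 3 lower at an unadjusted p under 0.05. The shares of these 2 lists were 11.8% and 11.5%, beside 6.62% lower over all genes. None of 14 MHC class I and immunoproteasome genes passed either, with 4 higher (28.6%) at an unadjusted p under 0.05, beside 6.81% of all genes. H2-Q7, B2m, Tap1 and Tap2 had no probe set listed for them alone and are not among the 14. Of 23 glycolysis and hypoxia genes, 4 rose, among them the lactate transporter Slc16a3 (2.38-fold, adjusted p = 0.00195), the glucose transporter Slc2a1 (2.19-fold, adjusted p = 0.00764) and Hif1a (1.74-fold, adjusted p = 0.029). At an unadjusted p under 0.05, 8 of these 23 were higher and 1 lower (34.8% and 4.35%), beside 6.81% and 6.62% of all genes. The mean of this list was 7.80 to 8.13 on pristane replicates 1, 7 and 8 and 8.22 to 8.56 on the other pristane arrays. On untreated arrays it was 7.65 to 8.13. Rpl13a, Hmgb2 and Hif1a did not pass with week 4 alone. Of 24 immediate early genes, which respond to handling as well as to signals, 2 rose. Ier3 rose 3.59-fold (adjusted p = 0.00017) and Fosl2 2.25-fold (adjusted p = 0.000226), though a second probe set of Fosl2 did not rise at the adjusted p. Fos, Egr1 and Jun differed by 0.81, 0.39 and 0.07 (adjusted p = 0.141, 0.422 and 0.96). In this list 5 genes were higher (20.8%) and 0 lower at an unadjusted p under 0.05.

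Week 4 was then set beside the weeks before and after it, each with its own 8 pristane and 8 untreated arrays. At week 2, 196 genes were called higher and 16 lower (1.15% and 0.0936% of all genes), and at week 8, 190 and 29 (1.11% and 0.17%). Of the 227 rises of week 4, 154 were also called at week 2, which is 67.8% of the week 4 list and 78.6% of the week 2 list. With week 8, 152 were shared, 67% of the week 4 list and 80% of the week 8 list. Of the 20 falls, 4 were called at week 2 (20% and 25% of the lists) and 8 at week 8 (40% and 27.6%), with the same direction of difference for all 20 at both weeks.

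At neither other week were 42 rises of week 4 called, among them Saa3, Itgam, Cybb, Alox5 and Cfp, chosen here after their values were seen. Some of the 42 missed only the 2-fold threshold at another week. Alox5 had log2 differences of 0.89 at week 2 and 0.86 at week 8 (adjusted p = 0.0124 and 0.0194). Itgam had 0.80 at week 8 (adjusted p = 0.0283). For Saa3 the log2 difference was 1.0, 2.21 and 1.37 at weeks 2, 4 and 8, and for Cybb, a subunit of the phagocyte oxidase, 0.37, 1.16 and 0.07. None of them passed a test of the difference between weeks. In the interaction of week 4 minus week 2, 0 genes passed with the 2-fold threshold and 1 without it, or 0.00585%, while 819 (4.79%) had an unadjusted p under 0.05. In week 8 minus week 4, 0 of 17097 passed (0%), with 566 (3.31%) at an unadjusted p under 0.05 and a smallest adjusted p of 0.9. Without pristane replicate 1 these counts were 1 and 0.

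The gene that passed was Cth, an enzyme of cysteine synthesis, whose signal was low throughout. It had 1.68, 1.79 and 1.98 in pristane-treated blood of week 2 and 1.88, 2.35 and 3.04 in untreated blood of week 2, and 1.85, 2.01 and 2.18 in pristane-treated blood of week 4 and 1.68, 1.79 and 2.06 in untreated blood of week 4. The week 4 effect exceeded that of week 2 by 0.79 (0.52 to 1.06, adjusted p = 0.00629), with effects of -0.58 at week 2 (adjusted p = 1.76e-05) and 0.20 at week 4 (adjusted p = 0.36).

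By list, interferon effectors had medians of 1.34, 1.40 and 1.18 at weeks 2, 4 and 8, with 24, 22 and 19 of 32 risen. The week 2 background was 2.29% risen and 1.29% fallen, and that of week 8 was 1.85% risen and 0.778% fallen. Mature neutrophil genes had medians of 1.29, 1.29 and 1.0, with 28, 31 and 27 of 39 risen. Granule genes had 0.80, 1.85 and 1.81, with 10, 10 and 13 of 17 risen, and classical monocyte genes 0.54, 0.73 and 0.07, with 5, 8 and 3 of 16 risen. B cell genes had -0.42, -0.53 and -0.48, with 4, 6 and 3 of 27 fallen. No member of these lists passed the tests between weeks, so the differences between their medians are a description.

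**Figure D5:**
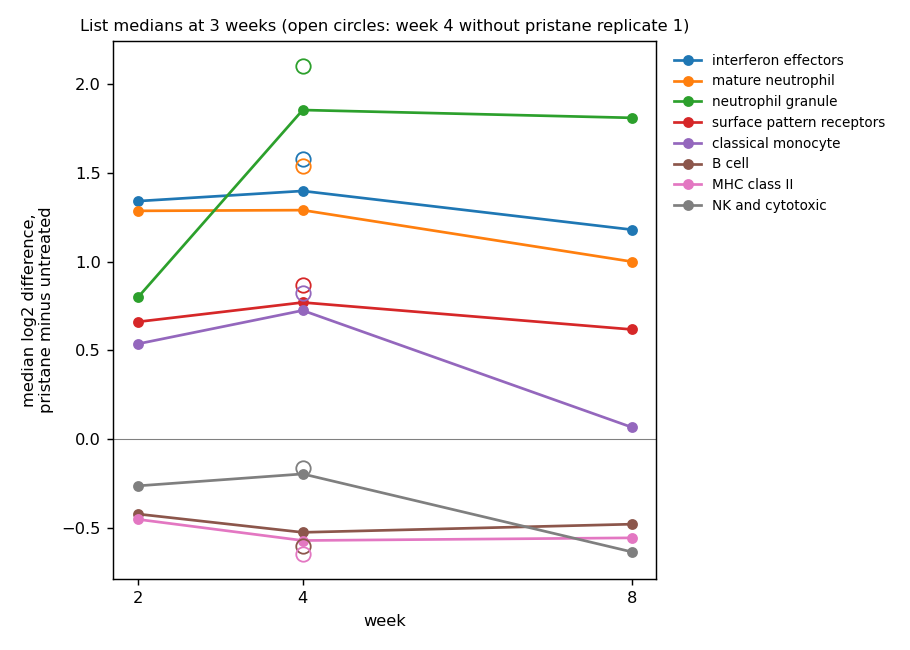
Median log2 difference of pristane minus untreated in 8 gene lists (vertical axis) at weeks 2, 4 and 8 after the injection (horizontal axis), with open circles for week 4 without pristane replicate 1. The granule median is 0.80 at week 2 and 1.85 at week 4, the classical monocyte median 0.73 at week 4 and 0.07 at week 8, and the other medians lie closer together.

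Single genes are set side by side over the weeks. Rtp4 had log2 differences of 3.94, 3.63 and 3.12 at weeks 2, 4 and 8, Irf7 3.74, 2.88 and 3.08, Camp 1.49, 3.03 and 2.85, and Olfm4 0.80, 2.00 and 2.73. Hpgd had -1.84, -1.93 and -2.34. Ccr2 had 0.67, 1.04 and -0.03. None of these genes differed between weeks by the adjusted test.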

How the data were processed

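RNA from whole blood was hybridised to Affymetrix HT MG-430 PM arrays, 1 per sample. The deposited values are log2 signals that the authors summarised with RMA, which corrects background and normalizes across arrays. The interquartile ranges of the arrays of week 4 still ran from 2.79 to 3.54. The submitters' processing notes name RMA and Partek, with no version. Of 45141 probe sets, 104 controls were left out. With the table of GEO's platform annotation, 28898 had 1 gene, 551 several and 15588 were not listed. Symbols were updated for 28689 by Entrez ID.

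All 88 arrays (11 groups of 8) entered a limma fit of group means (version 3.58.1, R 4.3.3), which left 77 residual degrees of freedom, with Benjamini-Hochberg adjustment over 45037 probe sets. Calls required over 2-fold and an adjusted p below 0.05; list members were counted as risen or fallen at the adjusted p alone. The code was tested on simulated data. Named were the 14 largest rises and falls, the 4 members per list with the highest absolute moderated t and up to 5 genes per direction called between weeks; other genes illustrate lists and were chosen after their values were seen. Members, lists and comparisons were chosen with earlier results of these data known. P-values and confidence intervals rest on a spread pooled for each probe set over all 88 arrays, and not on the arrays of week 4 alone. Replicate 1 widened the pristane group of week 4. The interferon effector mean had a standard deviation of 0.590 on pristane and 0.158 on untreated arrays of that week. Alternatives were the normalization, filters, covariates, array weights, controls, the probe set per gene and leaving out each array.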

Additional observations from a re-analysis of the deposited data

Results flagged for a closer look

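In 352 groups of 8 values, made up of genes named here and of list means in each group, the highest or lowest array was tested for a gap from the rest (Dixon's test), which by chance picks about 1 in 20. It picked 37, and 21 of these were pristane replicate 1 lying low. The groups share the same arrays, and the list means contain named genes. Many genes were named for the size or the test statistic of their difference in this same comparison. The share of 1 in 20 is therefore no yardstick for the 37. The 21 describe replicate 1 and are not a separate test of it. On genes of the interferon lists that array had Rtp4 6.61, Oasl2 4.64, Ifit1 6.47, Oas1g 6.26, Slfn4 8.26, Usp18 4.89, Oas2 5.45, Ifi27l2a 8.63, Irf7 6.58, Dtx3l 9.11 and Ifih1 6.12, all log2 signals. On neutrophil and monocyte genes it had Ltf 6.16, Ngp 6.63, Lcn2 7.07, Anxa1 8.53, Chil3 5.75 and Ly6c1 6.61, and on others Ifitm6 7.73 and Mcpt8 4.78. Its means of the interferon effector and neutrophil granule lists were 6.89 and 5.61.

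The same array was alone at the high end on Spib at 10.11, on the NK receptor gene Klrb1c at 6.29 and in the mean of the plasma cell list at 6.16. Of the other pristane arrays, replicate 4 was low on Il2rb, a receptor chain for interleukins 2 and 15, at 4.17, and replicate 5 was high in the mean of the immediate early list at 6.98.

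Among untreated arrays, replicate 8 was low on Cd2 at 8.47, Rpl29 at 10.58, Ndufb7 at 9.09, Hif1a at 5.99 and in the mean of the translation factors at 8.92, and high on the eosinophil gene Ccr3 at 3.74. Untreated replicate 7 was high on Ltf at 6.86 and replicate 1 in the mean of the interferon GTPases at 7.87. Replicate 3 was low on Saa3 at 2.99, replicate 5 on Fcer1g at 8.68 and replicate 6 on Cxxc5 at 5.58. The part of sample handling or labeling in any of these values was not tested.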

How the results depend on the processing

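Of 143 named genes, 82 passed the adjusted p and 42 of these passed in all 26 settings (16 that left out an array, 10 others); none changed direction, and none was lost without pristane replicate 1. The 227 genes called higher became 141 with a replicate block and 372 with no fold threshold, and 190 to 274 when one array was left out. The 20 called lower became 11 with only the arrays of week 4 and also with a replicate block, 13 with the interquartile range as a covariate, 13 with untreated mice of weeks 2, 4 and 8 as the control, 35 with the probe set of largest spread and 137 with no fold threshold, and 13 (without untreated replicate 2) to 27 (without pristane replicate 1 or 2) when one array was left out. Of 31 mature neutrophil rises, 16 passed with the block. B cell falls numbered 1 with only week 4, 2 with the block and 10 with the pooled control, and 4 (without pristane replicate 3) to 10 (without pristane replicate 1). MHC class II falls numbered 1 with only week 4, 0 with the block, 3 after median centring, 8 with array weights and 8 with the pooled control, and 1 (without pristane replicate 3) to 7 (without pristane replicate 1). With no fold threshold, 1 gene differed between weeks 4 and 2. The cause of these changes was not tested. The replicate numbers gave no clear sign of pairing. Deviations of same-numbered arrays correlated at -0.174 to 0.543, above 0.1 in 3 of 8 pairs, and 2 of 8 arrays correlated best with their own number. Correlations over whole arrays cannot show whether a weaker pairing exists. The block lost 36 of the 82 named genes, and fitting week 4 alone lost 27. In each case the direction was kept. The genes lost with week 4 alone had folds of 1.34 to 2.61 (12 rises, 15 falls) and those lost with the block folds of 1.34 to 3.12 (20 rises, 16 falls). Beside the losses given above with the genes, Fcer1g, Plac8 and Hk3 were lost in both fits and, with the block but not with week 4 alone, Crlf3, Ncr1, Dhx58, Casp4, Cd14, Tlr2, Clec4a2, H2-Oa, Ccr2, Alox5, Alox5ap and Slc16a3 were. The number of arrays, 8 a group, limits what can be called.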
